A study of Sus scrofa with 40 samples.

Results

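The histone genes on a porcine expression array were followed through warm ischemia and cold storage of the kidney. They were taken as every array identifier named HIST followed by a cluster number, or H1, H2 or H3 with the letter A or F, or described as histone H1, H2, H3 or H4 with no mention of lysine, methylation, acetylation or a kinase. This gave 23 of the 35955 identifiers, on 60 spots. They fell into 11 replication-dependent genes (16 spots), 5 replacement variants (37 spots), 2 genes named for germ cells (2 spots) and 5 contigs with only a partial resemblance to a histone of another organism (5 spots). Without those weak matches, 18 identifiers remained, of which 3 encode histone H1, 5 H2A, 4 H2B, 4 H3 and 2 H4.

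The 40 arrays came from 15 kidneys of Large White pigs aged 3 months, all with the same anaesthesia and surgery. Cortex (C) and corticomedullary junction (CMJ) were each sampled in 4 states, with 5 arrays per state and tissue. Control kidneys (Ctl-C, Ctl-CMJ), from brother pigs, were frozen straight after removal. Warm ischemia kidneys (WI-C, WI-CMJ) stayed clamped for 60 min at 37 °C. The last 5 kidneys had the same 60 min of warm ischemia, were flushed with University of Wisconsin solution and were kept at 4 °C, with biopsies at 6 h (WI+CS6h) and at 24 h (WI+CS24h). Cold storage was thus always preceded by warm ischemia, and the flush and the cold cannot be told apart. Both cold storage times came from the same organs. Each biopsy held many cell types, so fewer cells of a type and less RNA per cell cannot be told apart.

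Histones are the spools on which DNA is wound. A pair each of H2A, H2B, H3 and H4 forms the core of a nucleosome, and H1 sits on the linker between cores. Replication-dependent histone genes lie in clusters, have no introns, and are transcribed mainly while DNA is copied. Their mRNAs mostly end in a stem-loop in place of a poly(A) tail. Replacement variants such as H3.3 and H2A.Z are made throughout the cell cycle from ordinary polyadenylated mRNA, and are laid down where chromatin is opened or repaired. The labelling used for these arrays starts from an oligo-dT primer, which binds poly(A), so tailed copies of cluster genes weigh most in their signal. Whether a change concerned the amount of transcript or its tail was not tested.

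Many cluster genes resemble each other closely, so the probe sequences of the genes that carried the main changes are given first. Capitals mark the run of 20 bases that 3 probes of HIST1H2BD, an H2B gene, have in common.

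HIST1H2BD probe a: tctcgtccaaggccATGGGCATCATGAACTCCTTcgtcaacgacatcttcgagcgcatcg
HIST1H2BD probe b: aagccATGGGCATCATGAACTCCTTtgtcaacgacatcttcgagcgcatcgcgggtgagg
HIST1H2BD probe c: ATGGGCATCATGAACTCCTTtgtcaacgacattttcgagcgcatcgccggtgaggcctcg

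Of the H2A genes, LOC100154071 (H2A type 1-like) and LOC100154508 (H2A type 1-F-like) have probes that align over 60 bases and differ at 9 of them, in capitals. The probe of LOC100157763, a further H2A type 1-like gene, lies elsewhere in its gene and is shown because its signal behaved differently.

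LOC100154071: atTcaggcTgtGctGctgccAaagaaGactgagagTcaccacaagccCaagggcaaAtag
LOC100154508: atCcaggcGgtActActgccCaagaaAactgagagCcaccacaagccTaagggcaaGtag
LOC100157763: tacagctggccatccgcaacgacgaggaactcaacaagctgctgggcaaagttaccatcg

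Both identifiers described as histone H4, ENSSSCT00000023491 and ENSSSCT00000026997, have probes from different stretches. The study's gene tables call the second HIST1H4A and call LOC100154071 HIST1H2AB.

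ENSSSCT00000023491: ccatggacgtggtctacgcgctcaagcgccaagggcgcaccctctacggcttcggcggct
ENSSSCT00000026997: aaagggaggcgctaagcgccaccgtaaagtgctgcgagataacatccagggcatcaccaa

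Probes of the replication-dependent genes had a median GC content of 51.7% (35 to 68.3%), against 41.7% for all probes and 40% for the replacement variants. In the RefSeq table of the pig assembly Sscrofa11.1, 8 histone genes with a symbol on this array lie on the same chromosome. They form a group of 5 (LOC100153329, LOC574051, HIST1H2BD, HIST1H3E and LOC595122), then 140 other genes, then LOC100157763, LOC100154071 and LOC100154508. LOC100153329 is described only as a histone cluster gene, so the naming rule did not take it.

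Signals are log2 values of the scanner's processed signal, quantile normalized over the 40 arrays, so 1 unit is a doubling. Of the 23 identifiers, 17 were well above background on every array, and none was saturated. The share of an array's spots that were well above background lay between 57 and 69.9%. It averaged 62.5% on the WI+CS6h-C arrays and 66.3% on the Ctl-C arrays. A gene was called where limma gave an adjusted p under 0.05 and a log2 fold change of at least 0.5 in size. In control kidneys the 2 tissues gave no histone call, against 0.312% of all identifiers. SLC12A1, the salt transporter of the thick ascending limb, was higher in Ctl-CMJ than in Ctl-C by 1.24 (log2, adjusted p = 0.0119).

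Some of the cluster genes for H2A, H2B and H4 were higher after cold storage in both tissues, and no histone was called lower. Over the 10 comparisons of a treated group with Ctl or of a cold storage group with WI, 29 of 230 pairs of identifier and comparison were called, 29 of them higher and 0 lower. This was 12.6% of the pairs, against 2.29% over all identifiers in the same 10 comparisons. The pairs are not independent, as the comparisons share arrays and both cold storage times share kidneys. The calls belonged to 7 identifiers, namely the H4 identifier ENSSSCT00000023491 with 8 calls, LOC100154071 and HIST1H2BD with 5 each, LOC100154508 and ENSSSCT00000026997 with 4 each, the H2B contig TC521395 with 2 and H2AFZ with 1. No H1 or H3 identifier was called in these fits.

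**Figure D1:**
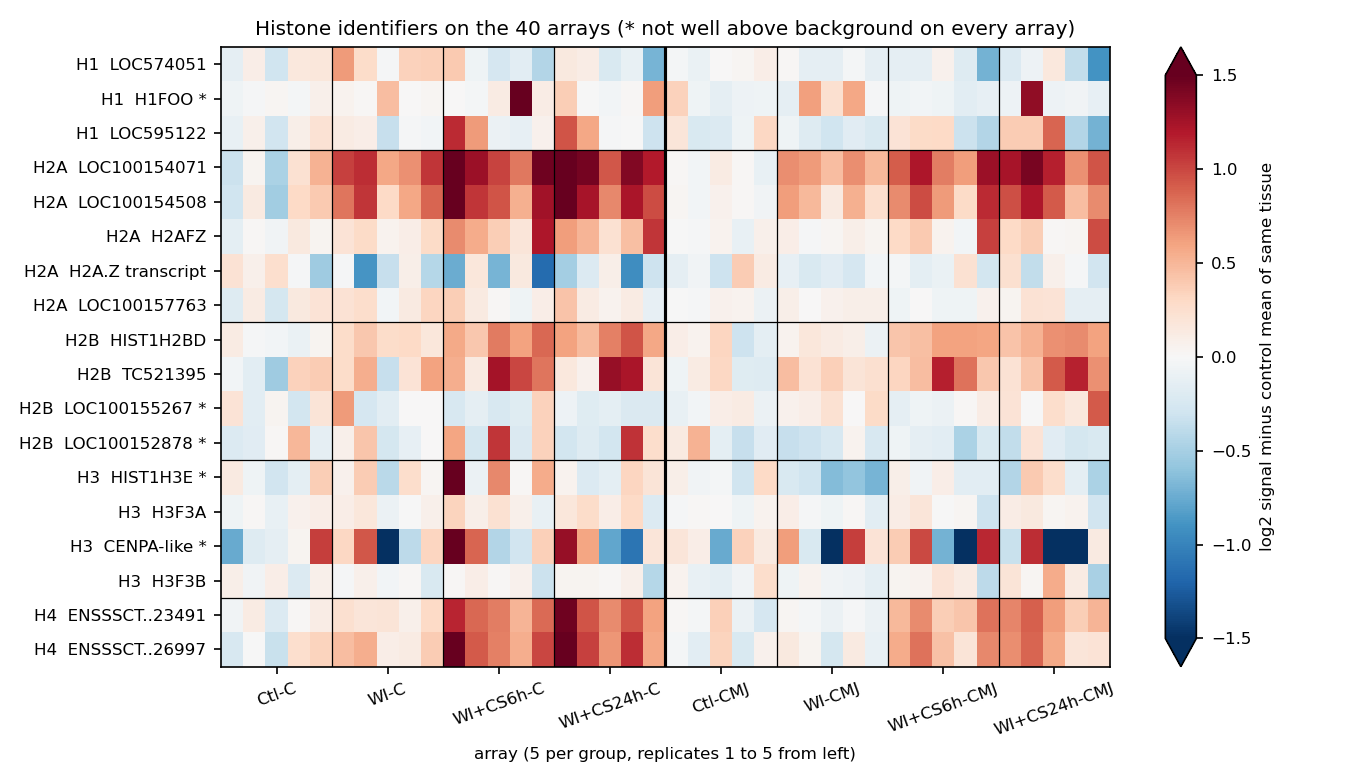
Heat map of the 18 histone identifiers other than the weak matches (vertical axis, by class) on the 40 arrays (horizontal axis, 5 per group). Colour is the log2 signal minus the mean of the control arrays of the same tissue, and an asterisk marks identifiers not well above background on every array. The H2A genes LOC100154071 and LOC100154508, HIST1H2BD and both H4 identifiers are red in the cold storage groups, while H3F3A and H3F3B stay pale.

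After 60 min of warm ischemia alone, few histone signals were called. In cortex 0 of 23 identifiers were called in limma, against 0.0946% of all identifiers, and 3 had an unadjusted p under 0.05, as had 4.89% of all. The median log2 fold change of the 23 was 0.07, against 0.01 over all identifiers. Of the 11 replication-dependent genes 10 were above 0, with a median of 0.26, where 53% of all identifiers were above 0. The 5 replacement variants had a median of -0.04. In CMJ 1 of 23 was called, LOC100154071, against 0.687% of all identifiers called and 0.37% called higher. The members' median there was 0.01, against -0.01 over all. In CMJ 6 of 11 replication-dependent genes were above 0, with a median of 0.07, where 47.2% of all identifiers were above 0. The replacement variants had a median of -0.05.

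After 6 h of cold storage 6 of 23 identifiers were higher than control in each tissue. In cortex 4.02% of all identifiers were called and 1.63% were called higher. In CMJ these shares were 3.19% and 1.35%. The members' median log2 fold change was 0.31 in cortex, against 0.05 over all identifiers, and 0 in CMJ, against -0.01. By kind, 5 of 11 replication-dependent genes were higher in WI+CS6h-C (median 0.75) and 6 of 11 in WI+CS6h-CMJ (median 0.53). Of the 5 replacement variants 1 was higher in cortex (median 0.12) and 0 in CMJ (median 0).

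After 24 h the picture was close to that at 6 h. In each tissue 5 of 23 identifiers were higher than control, with 2.5% of all identifiers called and 1.04% called higher in cortex, and 3.65% and 1.35% in CMJ. All 5 were replication-dependent genes in each tissue, whose medians were 0.59 and 0.51. No identifier was called between 24 h and 6 h in either tissue, where 0 of all identifiers were called in cortex and 0.00278% in CMJ. In limma 0 members of 23 had an unadjusted p under 0.05 in cortex and 1 in CMJ, against 3.11% and 3.44% of all identifiers. For the 7 called histones the difference between 24 h and 6 h ran from -0.15 to 0.13 in the fit without pairing, and with a replicate block 0 of 23 were called in either tissue. Within the 5 same-numbered pairs of CMJ arrays HIST1H2BD was higher at 24 h in 5, by 0.01 to 0.1, and the other 6 histones were higher in 1 to 4 of 5. An example of the precision is LOC100154071 in cortex, where the difference of 0.11 had a 95% interval of -0.34 to 0.56.

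Against warm ischemia in place of control, 1 of 23 identifiers was higher in WI+CS6h-C, where 1.93% of all identifiers were called and 1% were called higher. Likewise 1 of 23 was higher in WI+CS24h-C, where the shares were 1.2% and 0.637%. In CMJ 2 of 23 were higher at 6 h (2.78% of all called, 1.37% called higher) and 2 of 23 at 24 h (2.85% and 1.24%). These calls were the H4 identifier ENSSSCT00000023491 in all 4 comparisons, ENSSSCT00000026997 in WI+CS6h-CMJ and HIST1H2BD in WI+CS24h-CMJ. The comparisons with Ctl and with WI share their cold storage arrays.

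**Figure D2:**
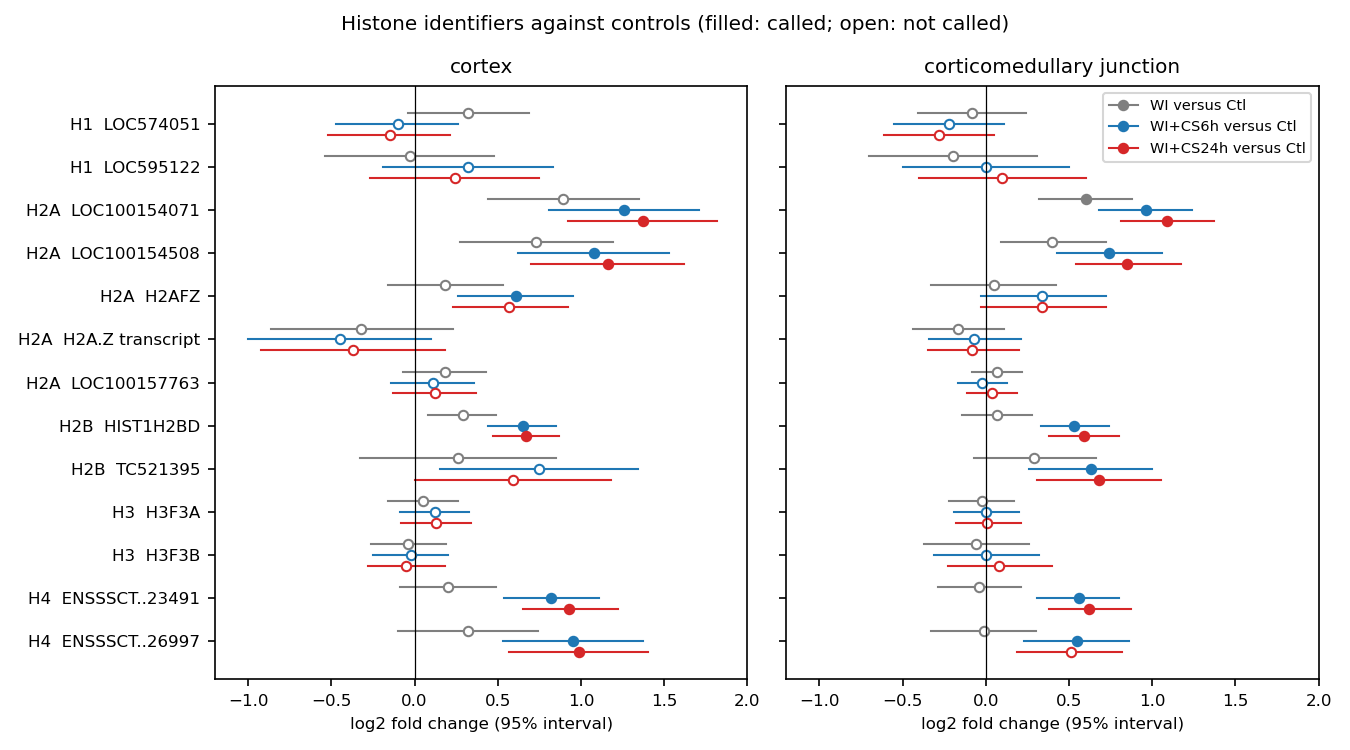
Log2 fold changes against control of the 13 histone identifiers well above background on all 40 arrays (horizontal axis, with 95% intervals from limma; vertical axis, identifiers by class), in cortex on the left and CMJ on the right. Filled points are called and open points are not. For each of the 7 called histones grey (WI) lies to the left of blue (WI+CS6h) and red (WI+CS24h) in both tissues.

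The H2A genes gave the largest called changes. H2A is a core histone that pairs with H2B, and its cluster genes supply new chromatin. For LOC100154071 the log2 signal in cortex was 6.48, 6.85, 6.33, 7.04 and 7.33 in Ctl-C, 7.83, 7.91, 7.39, 7.49 and 7.88 in WI-C, 8.56, 8.09, 7.82, 7.6 and 8.26 in WI+CS6h-C, and 8.7, 8.24, 7.74, 8.2 and 7.99 in WI+CS24h-C. In CMJ it was 7.09, 7.04, 7.2, 7.09 and 6.97 in Ctl-CMJ, 7.77, 7.72, 7.54, 7.78 and 7.57 in WI-CMJ, 7.99, 8.29, 7.84, 7.71 and 8.36 in WI+CS6h-CMJ, and 8.32, 8.5, 8.24, 7.76 and 8.02 in WI+CS24h-CMJ. Every treated array lay above every control array of its tissue, warm ischemia included, while warm ischemia and cold storage arrays overlapped.

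LOC100154071 rose 2.39-fold in WI+CS6h-C (log2 1.26, SE 0.21, adjusted p = 0.0026) and 2.58-fold in WI+CS24h-C (log2 1.37, SE 0.21, adjusted p = 0.00157). In CMJ it rose 1.95-fold at 6 h (log2 0.96, SE 0.13, adjusted p = 0.000368) and 2.13-fold at 24 h (log2 1.09, SE 0.13, adjusted p = 0.000101). Warm ischemia alone raised it in CMJ (log2 0.6, SE 0.13, adjusted p = 0.0419), and in cortex the larger value of 0.89 (SE 0.21) did not pass (adjusted p = 0.286). Against warm ischemia, LOC100154071 was higher by 0.36 at 6 h and 0.47 at 24 h in cortex, and by 0.36 and 0.49 in CMJ. None of these was called. The WI-CMJ call was lost without any one of its 10 arrays, with adjusted p from 0.0543 to 0.104, although the log2 fold change stayed between 0.57 and 0.63. It was also lost with 75th percentile scaling (0.58, adjusted p = 0.084), normexp background (0.33, adjusted p = 0.0911) and the share of spots above background as a covariate (0.58, adjusted p = 0.0622). The cold storage calls were kept with normexp background at smaller values (cortex 0.68 and 0.74, CMJ 0.57 and 0.62).

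LOC100154508 followed the same course at a smaller size. In cortex its log2 signal was 6.16, 6.59, 5.93, 6.75 and 6.85 in Ctl-C, 7.26, 7.53, 6.76, 7.04 and 7.33 in WI-C, 8.03, 7.53, 7.4, 6.99 and 7.71 in WI+CS6h-C, and 8.1, 7.69, 7.18, 7.68 and 7.44 in WI+CS24h-C. In CMJ it was 6.76, 6.69, 6.8, 6.75 and 6.68 in Ctl-CMJ, 7.36, 7.22, 6.87, 7.27 and 6.99 in WI-CMJ, 7.44, 7.72, 7.38, 7.02 and 7.85 in WI+CS6h-CMJ, and 7.7, 7.95, 7.66, 7.2 and 7.44 in WI+CS24h-CMJ. All cold storage arrays were above all control arrays, and in cortex 1 warm ischemia array fell within the control range.

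The rise of LOC100154508 was 2.11-fold in WI+CS6h-C (log2 1.08, SE 0.22, adjusted p = 0.0083) and 2.24-fold in WI+CS24h-C (log2 1.16, SE 0.22, adjusted p = 0.00602). It was 1.67-fold in WI+CS6h-CMJ (log2 0.74, SE 0.15, adjusted p = 0.0071) and 1.81-fold in WI+CS24h-CMJ (log2 0.85, SE 0.15, adjusted p = 0.00238). After warm ischemia alone the values were 0.73 in cortex (adjusted p = 0.555) and 0.4 in CMJ (adjusted p = 0.241), neither of them called. With normexp background the cold storage values were 0.52 and 0.55 in cortex, and both CMJ calls were lost at 0.37 and 0.39. With only the groups compared, the cortex call at 6 h was lost (adjusted p = 0.0551). With group means removed, the signals of LOC100154508 and LOC100154071 correlated at 0.97 over the 40 arrays. As the probes printed above differ at only 9 bases, signal from a shared transcript was not separated from joint regulation, and this was not tested.

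The third H2A type 1-like gene, LOC100157763, was chosen for description after its values were seen. Its log2 signal ran from 11.35 to 11.82 in Ctl-C, 11.55 to 11.99 in WI+CS6h-C, and had a median of 11.74 and a highest value of 12.05 in WI+CS24h-C, so the groups overlapped. Its log2 fold changes against control were 0.11 (95% interval -0.14 to 0.36) at 6 h and 0.12 (-0.13 to 0.37) at 24 h in cortex. In CMJ they were -0.02 (-0.17 to 0.13) and 0.04 (-0.11 to 0.19). These intervals lie below the changes of LOC100154071 in the same groups. The deviations of LOC100157763 from its group means still correlated at 0.87 with those of LOC100154071.

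H2AFZ encodes H2A.Z, the replacement variant found at promoters and enhancers. In cortex its log2 signal was 10.39, 10.55, 10.48, 10.68 and 10.58 in Ctl-C, 10.74, 10.82, 10.59, 10.63 and 10.82 in WI-C, 11.24, 11.09, 10.91, 10.72 and 11.75 in WI+CS6h-C, and 11.16, 11.04, 10.76, 10.99 and 11.61 in WI+CS24h-C. In CMJ it was 10.72, 10.71, 10.78, 10.62 and 10.8 in Ctl-CMJ, 10.83, 10.71, 10.76, 10.81 and 10.77 in WI-CMJ, 11.02, 11.12, 10.78, 10.68 and 11.75 in WI+CS6h-CMJ, and 11.02, 11.1, 10.74, 10.76 and 11.71 in WI+CS24h-CMJ. Cold storage replicate 5 was the highest array of all 4 cold storage groups, and replicates 3 and 4 were the lowest in each. In cortex all cold storage arrays were above control, and in CMJ the groups overlapped.

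H2AFZ rose 1.52-fold in WI+CS6h-C (log2 0.61, SE 0.16, adjusted p = 0.0417). The value at 24 h, 0.57, did not pass (adjusted p = 0.0686), nor did 0.34 at either time in CMJ (adjusted p = 0.373 and 0.338). The call at 6 h was lost without WI+CS6h-C replicate 5 (0.45, adjusted p = 0.0909), without replicate 1 (0.58, adjusted p = 0.102) and without any one control array (0.57 to 0.64, adjusted p = 0.0528 to 0.108). It was lost too with 75th percentile scaling (0.76, adjusted p = 0.0696), the share of spots above background as a covariate (0.48, adjusted p = 0.191) and only the groups compared (adjusted p = 0.124). Its 4 probes gave 0.55 to 0.66 at 6 h in cortex. A separate identifier described as histone H2A.Z (ENSSSCT00000018220), on 1 probe, gave -0.45 at 6 h and -0.37 at 24 h in cortex, neither called, and was looked up after its values were seen.

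H2B, the partner of H2A, rose through HIST1H2BD. In cortex its log2 signal, averaged over 4 probes, was 10.79, 10.65, 10.63, 10.57 and 10.71 in Ctl-C, 10.95, 11.07, 10.95, 10.97 and 10.84 in WI-C, 11.24, 11.08, 11.45, 11.27 and 11.53 in WI+CS6h-C, and 11.27, 11.14, 11.42, 11.61 and 11.25 in WI+CS24h-C. In CMJ it was 10.81, 10.76, 11.03, 10.4 and 10.56 in Ctl-CMJ, 10.77, 10.88, 10.84, 10.8 and 10.62 in WI-CMJ, 11.13, 11.16, 11.32, 11.32 and 11.3 in WI+CS6h-CMJ, and 11.14, 11.23, 11.4, 11.42 and 11.31 in WI+CS24h-CMJ. In both tissues all cold storage arrays were above all control and all warm ischemia arrays.

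Against control, HIST1H2BD rose 1.57-fold in WI+CS6h-C (log2 0.65, SE 0.1, adjusted p = 0.00095) and 1.59-fold in WI+CS24h-C (log2 0.67, SE 0.1, adjusted p = 0.000804). In CMJ it rose 1.45-fold at 6 h (log2 0.53, SE 0.1, adjusted p = 0.00382) and 1.5-fold at 24 h (log2 0.59, SE 0.1, adjusted p = 0.00172). Against WI-CMJ it rose by 0.52 at 24 h (SE 0.1, adjusted p = 0.0058), while 0.46 at 6 h had an adjusted p of 0.0128 but stayed under the fold limit. The smaller CMJ calls sat near that limit. At 6 h the value fell to 0.46 without Ctl-CMJ replicate 4 and to 0.5, under the limit before rounding, without replicate 5. Against WI-CMJ at 24 h it fell to 0.48 without WI-CMJ replicate 5 and to 0.49 without WI+CS24h-CMJ replicate 3 or replicate 4. These calls were also lost with normexp background (0.49 and 0.48), and the second with 75th percentile scaling (0.51, adjusted p = 0.0564).

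The probes of HIST1H2BD did not move alike. The 3 probes printed above gave 0.73 to 0.79 in WI+CS6h-C, while the fourth gave 0.31. That probe has a GC content of 35%, against 55% for the others, shares no run of 20 bases with another probe, and was the brightest of the 4. At 24 h in cortex it gave 0.26, and in CMJ 0.25 and 0.24. Taking the brightest probe for each gene therefore ended all 5 calls of HIST1H2BD. Probe a also shares a run of 41 bases with the probe of ENSSSCT00000001263, a gene described as histone cluster 1 H2bh, so the printed probes may read more than 1 H2B transcript.

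**Figure D3:**
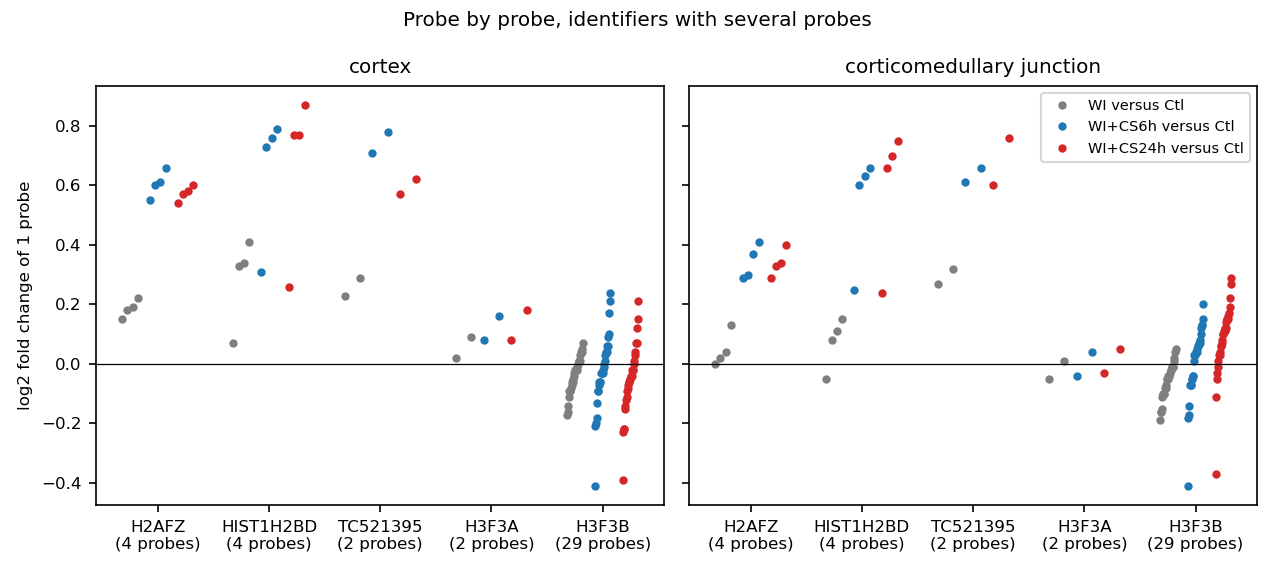
Log2 fold change against control of each probe (vertical axis) for the identifiers with several probes that were well above background on every array (horizontal axis), in cortex on the left and CMJ on the right. In the cold storage comparisons 1 probe of HIST1H2BD lies apart from the other 3, the 4 H2AFZ probes lie together, and the 29 H3F3B probes spread around 0.

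TC521395 is a contig described as complete mouse H2B type 1-C/E/G. In cortex its log2 signal was 6.32, 6.2, 5.83, 6.71 and 6.74 in Ctl-C, 6.64, 6.91, 6.02, 6.56 and 6.96 in WI-C, 6.9, 6.5, 7.61, 7.36 and 7.16 in WI+CS6h-C, and 6.52, 6.43, 7.67, 7.59 and 6.55 in WI+CS24h-C. In CMJ it was 6.01, 6.2, 6.38, 5.89 and 5.88 in Ctl-CMJ, 6.53, 6.29, 6.43, 6.27 and 6.31 in WI-CMJ, 6.39, 6.53, 7.24, 6.89 and 6.48 in WI+CS6h-CMJ, and 6.29, 6.49, 6.99, 7.23 and 6.76 in WI+CS24h-CMJ. Cold storage replicates 3 and 4 were the highest arrays of all 4 cold storage groups, which is the reverse of H2AFZ.

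The contig rose in CMJ, by 0.63 at 6 h (SE 0.18, adjusted p = 0.0476) and by 0.68 at 24 h (SE 0.18, adjusted p = 0.0302), and the groups overlapped at 24 h. In cortex 0.75 and 0.59 did not pass (adjusted p = 0.137 and 0.309). Both CMJ calls had adjusted p near 0.05. The one at 6 h was lost without any array but Ctl-CMJ replicate 3 and WI+CS6h-CMJ replicates 1 and 5 (0.5 to 0.68, adjusted p = 0.0655 to 0.122). The one at 24 h was lost without any array but Ctl-CMJ replicates 2 and 3 and WI+CS24h-CMJ replicates 1 and 2 (0.56 to 0.68, adjusted p = 0.0541 to 0.0766). Of 11 other ways of processing, 4 kept the call at 6 h and 6 the one at 24 h, and normexp background gave 0.25 and 0.24. The other H2B identifiers, LOC100155267 (H2B type 2-F-like) and LOC100152878 (H2B type 1-A, the testis form, which lies outside the rule for named genes), were well above background on 0 arrays, so no change is given for them.

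**Figure D4:**
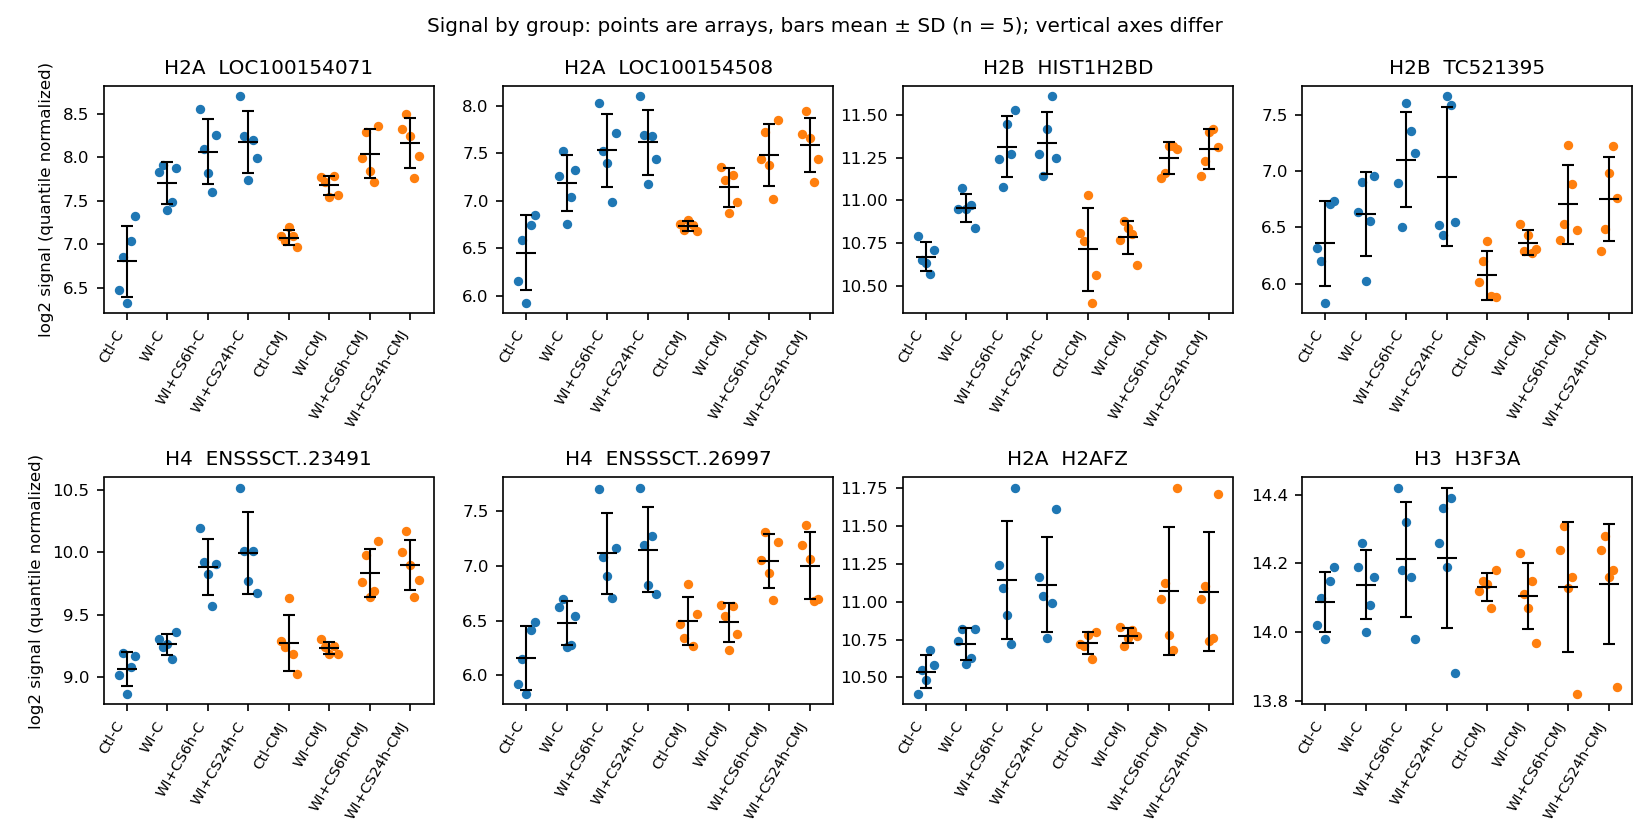
Log2 signal (vertical axis, quantile normalized; scales differ between panels) of the 7 called histones and of H3F3A by group (horizontal axis), with 1 point per array and bars for mean ± SD (n = 5). For HIST1H2BD every cold storage array lies above the control and warm ischemia arrays of its tissue, while the H3F3A groups overlap throughout.

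Of the classes taken by the rule, H4, which pairs with H3, gave the most calls. For ENSSSCT00000023491 the log2 signal in cortex was 9.01, 9.19, 8.86, 9.08 and 9.17 in Ctl-C, 9.3, 9.24, 9.26, 9.14 and 9.36 in WI-C, 10.2, 9.92, 9.83, 9.57 and 9.91 in WI+CS6h-C, and 10.52, 10.01, 9.77, 10.01 and 9.67 in WI+CS24h-C. In CMJ it was 9.29, 9.24, 9.63, 9.18 and 9.02 in Ctl-CMJ, 9.3, 9.24, 9.18, 9.25 and 9.18 in WI-CMJ, 9.76, 9.98, 9.64, 9.69 and 10.09 in WI+CS6h-CMJ, and 10, 10.17, 9.9, 9.64 and 9.78 in WI+CS24h-CMJ. All cold storage arrays lay above all control and all warm ischemia arrays of their tissue, and the warm ischemia arrays overlapped with control.

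ENSSSCT00000023491 rose 1.77-fold in WI+CS6h-C (log2 0.82, SE 0.14, adjusted p = 0.00207) and 1.91-fold in WI+CS24h-C (log2 0.93, SE 0.14, adjusted p = 0.000858). Against WI-C it rose by 0.62 (adjusted p = 0.0201) and 0.73 (adjusted p = 0.00994). In CMJ it rose 1.47-fold at 6 h (log2 0.56, SE 0.12, adjusted p = 0.00898) and 1.54-fold at 24 h (log2 0.62, SE 0.12, adjusted p = 0.00378), and against WI-CMJ by 0.6 (adjusted p = 0.00719) and 0.66 (adjusted p = 0.00322). Leaving out 1 array ended the 6 h call against WI-C in 3 cases, namely without WI-C replicate 3 (0.62, adjusted p = 0.0514) or replicate 4 (0.59, adjusted p = 0.0579) or WI+CS6h-C replicate 1 (0.55, adjusted p = 0.0632). It also ended the 6 h call in CMJ, with values under the fold limit before rounding, without Ctl-CMJ replicate 5 (0.5) or WI+CS6h-CMJ replicate 5 (0.49). The 6 h value in CMJ was also below the limit with normexp background (0.48). With only the groups compared, both calls against WI-C (adjusted p = 0.0614 and 0.0679) and the 6 h call in CMJ (adjusted p = 0.0516) were lost, and the 6 h call against WI-C was lost with 75th percentile scaling (adjusted p = 0.0543). Its probe is listed for 4 transcripts, so the identifier may stand for several H4 genes.

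For ENSSSCT00000026997 the log2 signal in cortex was 5.92, 6.15, 5.83, 6.41 and 6.49 in Ctl-C, 6.62, 6.7, 6.26, 6.28 and 6.54 in WI-C, 7.7, 7.08, 6.91, 6.71 and 7.16 in WI+CS6h-C, and 7.71, 7.19, 6.82, 7.27 and 6.74 in WI+CS24h-C. In CMJ it was 6.47, 6.34, 6.83, 6.27 and 6.56 in Ctl-CMJ, 6.64, 6.54, 6.23, 6.63 and 6.38 in WI-CMJ, 7.05, 7.31, 6.93, 6.69 and 7.22 in WI+CS6h-CMJ, and 7.19, 7.37, 7.06, 6.68 and 6.7 in WI+CS24h-CMJ. In cortex all cold storage arrays were above control and warm ischemia, and in CMJ they overlapped with control through Ctl-CMJ replicate 3.

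ENSSSCT00000026997 rose 1.93-fold in WI+CS6h-C (log2 0.95, SE 0.2, adjusted p = 0.00983) and 1.98-fold in WI+CS24h-C (log2 0.99, SE 0.2, adjusted p = 0.00964). Both cortex calls were lost with normexp background, at 0.4 each, and the one at 6 h also with the share of spots above background as a covariate (0.82, adjusted p = 0.0528) and with only the groups compared (adjusted p = 0.0525). In CMJ it rose at 6 h by 0.55 against control (SE 0.15, adjusted p = 0.0436) and by 0.56 against WI-CMJ (adjusted p = 0.0426). At 24 h in CMJ the value of 0.51 did not pass (adjusted p = 0.0593). The call against control was lost without any array but Ctl-CMJ replicate 3 and WI+CS6h-CMJ replicate 4 (0.48 to 0.57, adjusted p = 0.0639 to 0.123). The call against WI-CMJ was lost without any array but WI-CMJ replicate 1 and WI+CS6h-CMJ replicate 4 (0.49 to 0.6, adjusted p = 0.0565 to 0.116). Each was kept under 6 of the 11 other ways of processing, and normexp background gave 0.25 and 0.23.

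No H3 or H1 identifier was called, with intervals that were narrow for H3F3A and wide for some others. H3F3A, one of the genes for the replacement variant H3.3, had a log2 signal of 14.02, 14.1, 13.98, 14.15 and 14.19 in Ctl-C, 14.19, 14.26, 14, 14.08 and 14.16 in WI-C, 14.42, 14.18, 14.32, 14.16 and 13.98 in WI+CS6h-C, and 14.26, 14.36, 14.19, 14.39 and 13.88 in WI+CS24h-C. Its CMJ signals ran from 14.07 to 14.18 in Ctl-CMJ, 13.97 to 14.23 in WI-CMJ, 13.82 to 14.31 in WI+CS6h-CMJ and 13.84 to 14.28 in WI+CS24h-CMJ. All groups overlapped. The log2 fold changes against control in cortex were 0.12 at 6 h (95% interval -0.09 to 0.33) and 0.13 at 24 h (-0.08 to 0.34), and in CMJ 0 (-0.19 to 0.2) and 0.01 (-0.18 to 0.21). The changes of LOC100154071 and ENSSSCT00000023491 in the same groups lay above these intervals.

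H3F3B, the other H3.3 gene, was read by 29 probes and was also chosen after its values were seen. Its log2 fold changes were -0.04, -0.02 and -0.05 in cortex, and CMJ gave -0.06, 0 and 0.08, for WI, WI+CS6h and WI+CS24h in turn. In WI+CS6h-C its probes ran from -0.41 to 0.24. HIST1H3E, a replication-dependent H3 gene of the cluster, was well above background on only 10 of 40 arrays. Its log2 signal was 5.54, 1.47, 2.28, 1.58 and 2.12 in WI+CS6h-C and ran from 1.27 to 1.93 in Ctl-C, with replicate 1 far above the rest. As 1 array in each of these groups was well above background, no fold change is given, and the gene was not called (adjusted p = 0.258). With quantile normalization by group, HIST1H3E passed the test against WI-CMJ at both cold storage times, but no WI-CMJ array was well above background, and no fold change is given. CENPA-like, the identifier for the H3 variant of centromeres, was well above background on 15 arrays. With a log2 signal from 1.19 to 2.98 in Ctl-C and 1.51 to 3.59 in WI+CS6h-C, it was not called.

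Among the H1 genes, which encode linker histones, LOC574051 (H1.2-like) had a log2 signal of 10.86, 11.09, 10.7, 11.16 and 11.17 in Ctl-C, 11.64, 11.27, 10.98, 11.34 and 11.35 in WI-C, 11.39, 10.93, 10.74, 10.84 and 10.56 in WI+CS6h-C, and 11.14, 11.11, 10.77, 10.89 and 10.3 in WI+CS24h-C. In CMJ it ran from 11 to 11.2 in Ctl-CMJ, 10.96 to 11.12 in WI-CMJ, 10.39 to 11.16 in WI+CS6h-CMJ and 10.2 to 11.26 in WI+CS24h-CMJ. Its lowest array was replicate 5 in all 4 cold storage groups. Against control the values at 6 and 24 h were -0.1 and -0.15 in cortex, while CMJ gave -0.22 and -0.28 (adjusted p = 0.752, 0.724, 0.557 and 0.377), and against WI-C -0.42 and -0.48 (adjusted p = 0.245 and 0.236).

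LOC595122 (H1.3-like) had a log2 signal of 8.51, 8.7, 8.33, 8.71 and 8.84 in Ctl-C, 8.74, 8.72, 8.27, 8.6 and 8.58 in WI-C, 9.74, 9.26, 8.53, 8.49 and 8.68 in WI+CS6h-C, and 9.56, 9.2, 8.6, 8.61 and 8.31 in WI+CS24h-C. In cortex cold storage replicates 1 and 2 lay above all controls, and the other cold storage arrays did not. In CMJ it ran from 8.71 to 9.24 in Ctl-CMJ and from 8.23 to 9.81 in WI+CS24h-CMJ. It was not called, with 0.32 at 6 h (95% interval -0.19 to 0.83) and 0.24 at 24 h (-0.27 to 0.75) in cortex. H1FOO, the oocyte H1, was well above background on 1 array, WI+CS6h-C replicate 4, at a log2 signal of 3.05 against 0.22 to 0.4 on the other cortex arrays of that group and Ctl-C. The 5 weak matches gave no call.

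The response did not differ detectably between the tissues. Of 23 identifiers 0 were called for an interaction of tissue with WI, 0 with WI+CS6h and 0 with WI+CS24h, where 0 of all identifiers were called in each, and 0, 0 and 1 members had an unadjusted p under 0.05 in limma, against 1.98%, 5.17% and 2.58% of all. For the 7 called histones the interactions, CMJ minus cortex, ran from -0.48 to 0.09. The widest was ENSSSCT00000026997 at 24 h, at -0.48 (95% interval -0.99 to 0.03).

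Further histone cluster genes that the naming rule left out were looked at in the same fit. Of these 8 identifiers, in cortex 5 were higher at 6 h and 4 at 24 h of cold storage, in CMJ 4 were higher at each time, 1 was higher in WI-C and 1 in WI-CMJ, and 0 were lower in any. Over all identifiers 1.63% and 1.04% were called higher in cortex at 6 h and 24 h, and 1.35% in CMJ at each time, and 0.0278% in WI-C and 0.37% in WI-CMJ. Against warm ischemia 0 of the 8 were called at 6 h and 1 at 24 h in cortex, and 1 and 2 in CMJ, where 1.93%, 1.2%, 2.78% and 2.85% of all identifiers were called. ENSSSCT00000001263 (H2bh) rose by 0.82 in WI+CS24h-C (SE 0.08, adjusted p = 1.6e-05) and by 0.73 in WI+CS24h-CMJ (SE 0.09, adjusted p = 8.07e-05). ENSSSCT00000029000 rose by 0.52 in WI+CS6h-C (adjusted p = 0.0466), while 0.51 at 24 h in cortex and 0.18 and 0.26 in CMJ were not called. LOC100153329 gave 0.09 to 0.23 against control after cold storage and LOC100156741 gave 0.17 to 0.36, with no call. These identifiers were well above background on every array. LOC100154181 is described as H2ab, although the study's gene tables give the name HIST1H2AB to LOC100154071. LOC100154181 was not well above background on any control array, and was the identifier called after warm ischemia. It was at least 1.69-fold higher in WI-C (adjusted p = 0.0145) and at least 2-fold higher in WI-CMJ (adjusted p = 9.34e-05), and at 24 h at least 2.23-fold and 2.64-fold higher in cortex and CMJ.

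Genes that act with histones were read from lists. Of the genes that transcribe replication-dependent histone genes or trim their mRNA, 7 of 13 listed were measured. None was called higher, where at most 1.63% of all identifiers were, so nothing is read from that count. ZNF473, read here by the contig TC547562, whose protein takes part in cutting the histone mRNA 3′ end, fell in WI+CS6h-C (log2 -1.22, SE 0.16, adjusted p = 0.000273) and WI+CS24h-C (-1.13), in WI-CMJ (-0.59), WI+CS6h-CMJ (-0.84) and WI+CS24h-CMJ (-0.94). LSM11, a subunit of the U7 particle that guides the cut, fell in WI+CS24h-C (-0.52). NPAT, the transcription factor of the histone locus, was not called.

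Of the histone chaperones, 9 of 19 listed were measured. HIRA, which deposits H3.3, rose in WI+CS6h-CMJ (log2 0.54, SE 0.09, adjusted p = 0.00258) and WI+CS24h-CMJ (0.5, SE 0.09, adjusted p = 0.00397), and against WI-C by 0.63 (adjusted p = 0.0236) and 0.68 (adjusted p = 0.0192), with 0.47 and 0.51 against Ctl-C not called. RBBP4 was called lower in cortex, but was well above background on only 2 arrays, and no value is given. The other 7 were not called. Against WI-CMJ 1 of the 9 was called higher at each time. Each comparison gave at most 1 of 9 called, where at most 4.02% of all identifiers were called, so nothing is read from these counts.

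As replication-dependent histones are transcribed mainly in S phase, a list of proliferation and S phase genes was set beside them. Of 18 listed, 10 were measured and 0 were called in any comparison, where at most 4.02% of all identifiers were called, so a count of 0 among 10 genes is near the background. Their median log2 fold change against control was 0.65 at 6 h and 0.5 at 24 h in cortex, and 0.48 and 0.39 in CMJ, with 9 or 10 of 10 above 0. Over all identifiers these medians were 0.05, 0.01, -0.01 and 0. Their mean signal per array ran from 5.63 to 6.52 in Ctl-C, 5.57 to 7.16 in WI+CS6h-C and 5.62 to 7.27 in WI+CS24h-C. In CMJ it ran from 5.73 to 6.25 in the controls, 5.59 to 7.66 at 6 h and 5.54 to 7.39 at 24 h. In all 4 cold storage groups replicates 3 and 4 were the lowest arrays of the list and replicate 5 the highest, and the same held for H2AFZ. At 6 h replicates 3 and 4 were also the lowest for LOC100154071, LOC100154508 and both H4 identifiers in both tissues. At 24 h they were not, with replicate 5 the lowest in cortex for both H4 identifiers, and for HIST1H2BD and TC521395 they were the lowest at neither time. The part of proliferating cells in the histone changes was not tested.

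Array quality and handling were set beside the calls. All 29 calls had the same sign on both scan days (smallest log2 fold change 0.37) and within slides that carried both groups. The calls were chosen on these same arrays, and the WI-CMJ call had only 1 such slide, so this does not test for a batch effect. With the share of spots above background as a covariate, 22 of the 29 calls were kept. Of the erythroid markers only 2 of 5 were measured. Their mean signal was 2.95 to 4.29 in Ctl-C and 4.72 to 5.32 in WI-C, and 3.02 to 4.25 in Ctl-CMJ and 4.03 to 4.95 in WI-CMJ. After cold storage it was 2.55 to 5.9 at 6 h and 2.92 to 6.33 at 24 h in cortex, and in CMJ 2.59 to 5.47 and 2.67 to 5.75. Neither gene was called. Their median log2 fold changes against control were 1.43 in WI-C and 0.85 in WI-CMJ. After cold storage they were 0.56 at 6 h and 0.9 at 24 h in cortex, with 0.17 and 0.61 for CMJ. Of 3 collecting duct markers, all measured, SCNN1G, a subunit of the epithelial sodium channel, was higher against control in WI+CS6h-C (0.65, adjusted p = 0.043), WI+CS6h-CMJ (0.66, adjusted p = 0.0482) and WI+CS24h-CMJ (0.85, adjusted p = 0.0101), and against WI-CMJ at both times (0.79 and 0.97). AQP3, a water channel, was lower against warm ischemia at both times in cortex (-0.63 and -0.65) and CMJ (-0.88 and -0.88), and AQP2 was not called. Over all identifiers 4.02%, 3.19% and 3.65% were called in these comparisons with control, and 1.2 to 2.85% in those with warm ischemia. The mean of the 3 markers per array ran from 9.97 to 10.56 in Ctl-C and 10.21 to 10.5 in WI+CS6h-C. It ran from 10.02 to 10.71 in Ctl-CMJ, 10.04 to 10.55 in WI+CS6h-CMJ and 10.01 to 10.69 in WI+CS24h-CMJ. No marker of proximal tubule (4 of 6 measured), podocytes (2 of 4), leukocytes (5 of 6), fat cells (4 of 4) or thick ascending limb (2 of 3) was called in these comparisons. At most 4.02% of all identifiers were called there, so nothing is read from these counts. The thick ascending limb medians against control were 0.32 at 6 h and 0.41 at 24 h in cortex, and -0.16 and -0.11 in CMJ. The part of these cell types in the results was not tested.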

How the data were processed

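RNA of 40 biopsies was labelled with Cy3 (Low Input Quick Amp) and hybridised to 1-colour Agilent 44k porcine arrays. The deposited scanner files hold intensities that the authors extracted with Feature Extraction 11.5.1.1, and the processed signal is already background-subtracted. The authors also deposited a matrix of log2 values, normalized in R 2.15.2 with limma, which served as an alternative. The genome build behind the array's annotation is not given in the sources used here.

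Outlier spots were set aside, log2 signals were quantile normalized over the 40 arrays, and spots were averaged per identifier. limma 3.58.1 in R 4.3.3 was fitted per tissue over 4 groups of 5 arrays, and over 40 arrays for interactions and for the control tissues, with Benjamini-Hochberg adjustment over all identifiers. The number of arrays limits the precision. The labels do not say whether a replicate number names a kidney. Deviations of same-numbered arrays from their group means correlated at 0.59 to 0.84 between WI+CS24h-CMJ and WI+CS6h-CMJ, 0.16 to 0.63 between the tissues at 6 h and 0.22 to 0.66 at 24 h, each in 5 of 5 pairs, so the numbers pair these arrays. Between WI+CS24h-C and WI+CS6h-C they ran from -0.42 to 0.62. The fits have no block, so p-values measure the spread between these arrays. Per class, the 3 identifiers with the most calls were named, and any other is marked where it is described. For a group whose arrays all lacked signal well above background, the bound sets the brighter group against the lowest signal well above background. The members and lists were chosen with earlier results of these data known. The fit was tested on simulated data.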

Additional observations from a re-analysis of the deposited data

Results flagged for a closer look

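Of 95 groups of 5 arrays tested, 4 held an array far from its group by Dixon's criterion, and chance flags about 1 in 20 groups. For HIST1H3E, WI+CS6h-C replicate 1 was at a log2 signal of 5.54, with the nearest array at 2.28. H1FOO was at 3.05 in WI+CS6h-C replicate 4, with the nearest at 0.4. H3F3A was at 13.84 in WI+CS24h-CMJ replicate 5, with the nearest at 14.16. CENPA-like was at 1.4 in Ctl-CMJ replicate 3, with the nearest at 2.26. None of these identifiers was called in limma after quantile normalization over all arrays. With quantile normalization by group HIST1H3E passed the test against WI-CMJ at both cold storage times, where no WI-CMJ array was well above background.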

How the results depend on the processing

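Of the 29 calls, 10 were kept under all 11 other ways of processing, 19 were kept in every fit without 1 array, and 0 reversed. Counts of histone identifiers called that moved by over 1.5 times follow. With 75th percentile scaling, WI+CS6h-C versus WI-C gave 0, WI-CMJ 0, and WI+CS6h-CMJ and WI+CS24h-CMJ versus WI-CMJ 1 each. With normexp background, WI-CMJ gave 0, WI+CS6h-CMJ 1, WI+CS24h-CMJ 3, and both cold storage groups against WI-CMJ 1. With the brightest probe, WI+CS24h-CMJ gave 3 and WI+CS24h-CMJ versus WI-CMJ 1. The deposited log2 matrix gave 1 for WI+CS6h-CMJ versus WI-CMJ. Quantile normalization by group, where the share of all calls that were higher went from 41.6 to 14.5% in WI+CS24h-C and from 42.2 to 64.5% in WI+CS6h-CMJ, gave 5 for WI+CS6h-C versus WI-C, 4 and 6 for WI+CS6h-CMJ and WI+CS24h-CMJ versus WI-CMJ, 1 for 24 h versus 6 h in CMJ and 1 for the interaction of WI+CS24h with tissue. With slide as a random block, WI+CS24h-CMJ versus WI-CMJ gave 4. With the share of spots above background as a covariate, WI-CMJ gave 0 and WI+CS6h-CMJ versus WI-CMJ 1. With only the groups compared, WI+CS6h-C and WI+CS6h-CMJ gave 3 each, both cold storage groups against WI-C 0, and WI+CS6h-CMJ versus WI-CMJ 1. Without 1 array the count ran from 0 to 1 for WI+CS6h-C versus WI-C, was 0 for WI-CMJ, and ran from 2 to 6 for WI+CS6h-CMJ (2 without Ctl-CMJ replicate 5, 3 without replicate 4), from 4 to 6 for WI+CS24h-CMJ, from 1 to 2 for WI+CS6h-CMJ versus WI-CMJ and from 1 to 4 for WI+CS24h-CMJ versus WI-CMJ. The fit with a replicate block gave 6 for WI+CS6h-C, 6 for WI+CS24h-C, 6 for WI+CS6h-CMJ and 5 for WI+CS24h-CMJ and kept all 29 calls. Control, warm ischemia and cold storage arrays came from different kidneys, so a shared number pairs nothing in these comparisons. With kidney as a random block, chosen after seeing the data, 0 were called between 24 h and 6 h in either tissue and 0 in each interaction. The cause of these shifts was not tested. HIST1H3E, CENPA-like and H1FOO were near background on most arrays, which limits what their values show.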
